A study of Rattus norvegicus with 6 samples.

Results

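The miR-181 family was studied in the sperm of rats on a high-protein diet (HPD fathers) or a standard diet (SD fathers). Its members were chosen by name, as the rows of the count table for the hairpins of rno-mir-181a, rno-mir-181b, rno-mir-181c and rno-mir-181d that match the genome. Of 384 miRNA rows and 26561 small RNA rows in all, 6 belonged to the family, because miR-181a and miR-181b have 2 hairpin copies each (miR-181a-1, miR-181a-2, miR-181b-1 and miR-181b-2). All 6 passed the filter on low counts. Small RNA of epididymal spermatozoa was sequenced from 3 HPD fathers and 3 SD fathers, all wild-type Wistar males that the labels give as 5 months old. The HPD, rich in casein, was given from 10 weeks of age for 2 to 3 months, while SD fathers stayed on standard chow. The libraries are called HPD2, HPD3 and HPD7 in the HPD group and CTRL1, CTRL2 and CTRL3 in the SD group.

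MiR-181 is an old vertebrate family whose 4 members share the seed, the stretch near the 5′ end by which a miRNA pairs with its target mRNAs. MiR-181a is best known from mouse and human lymphocytes, where it sets the sensitivity of the T cell receptor, and miR-181b from vascular endothelium, where it dampens inflammatory signalling through NF-κB. In mouse liver and adipose tissue the family has been tied to insulin sensitivity, in part through the deacetylase Sirt1. Sperm miRNAs are of interest because small RNAs of the sperm reach the egg at fertilization, and the comparison of HPD and SD fathers asks whether the paternal diet changes that cargo.

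The mature sequences from the 5′ arm are shown because their shared seed defines the family and their few differences decide which reads can be told apart. Bases 2 to 8, the seed, are in capitals. The sequences are those of RefSeq for the rat build GRCr8.
rno-miR-181a-5p: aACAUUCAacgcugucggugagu
rno-miR-181b-5p: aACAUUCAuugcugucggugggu
rno-miR-181c-5p: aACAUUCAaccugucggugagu
rno-miR-181d-5p: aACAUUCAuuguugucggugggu
In the RefSeq table of 724 mature rat entries, the seed ACAUUCA stood in 5 entries, all of the miR-181 family and with 4 distinct names. Counted from 1 at the 5′ end, miR-181b differs from miR-181a by A9U, C10U and A21G. MiR-181d differs from miR-181b by C12U alone. MiR-181c, with 22 bases, equals the 23 bases of miR-181a without the base at position 11. By sequence, miR-181a and miR-181c are thus 1 change apart, as are miR-181b and miR-181d, while by gene position miR-181a lies beside miR-181b and miR-181c beside miR-181d.

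The 6 genes lie on 3 chromosomes of GRCr8. Mir181a-1 and Mir181b1 are on chromosome 13 within a long non-coding RNA gene. The next protein-coding genes are Nr5a2 on one side and Ptprc, the gene of the leukocyte antigen CD45, on the other. Mir181a2 and Mir181b2 are on chromosome 3 within the span of Nr6a1, which encodes germ cell nuclear factor, an orphan nuclear receptor. Mir181c and Mir181d are on chromosome 19, overlapping no other gene of the table. They lie between the protein-coding genes Zswim4 and Nanos3, the second of which encodes an RNA-binding protein of germ cells. The deposited tables were made with the build Rnor_6.0, so no coordinates are given.

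The hairpin copies of miR-181a and of miR-181b carry one mature 5′ sequence each, so their rows share reads. The hairpin of miR-181b-2, for which the table lists no mature entry, is shown because it holds the mature sequence of miR-181b, in capitals, at bases 15 to 37.
rno-mir-181b-2 hairpin: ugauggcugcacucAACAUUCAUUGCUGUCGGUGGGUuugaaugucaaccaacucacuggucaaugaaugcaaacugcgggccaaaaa
The copies differ in the 3′ arm, which is shown for miR-181a with bases 2 to 8 in capitals, because only reads of that arm or of the rest of the hairpin can separate them.
rno-miR-181a-1-3p: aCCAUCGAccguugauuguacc
rno-miR-181a-2-3p: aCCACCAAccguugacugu
The counts of miR-181a-1 and miR-181a-2 differed by 5 to 68 reads in a library, or 0.121% to 1.503% of their sum. MiR-181b-2 was counted 20 to 84 reads above miR-181b-1 in each of the 6 libraries, or 3.77% to 19.0% of their sum. Values ending in a fraction of a read, which arise when a read is divided between rows, occurred in the miR-181a rows in 5 libraries, in the miR-181b rows in 3 and in the rows of miR-181c and miR-181d in 0. The copies are therefore also given as a sum, and their separate rows are not independent measurements. A hairpin row counts both arms together.

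The HPD libraries held 5703625 to 7697588 reads and the SD libraries 4141018 to 7920000 reads. Of these, miRNA made up 11.3% to 15.1% in HPD fathers and 20.9% to 28.9% in SD fathers. CTRL1, the deepest library, also had the highest miRNA share. RNA was taken from whole sperm pellets after a hypotonic shock against somatic cells, so fewer cells of a type and less RNA per cell cannot be told apart. The labels name no batch, and any batch shared by the rats of one diet cannot be told apart from the diet.

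The summed miR-181 family was lower in the sperm of HPD fathers. Its level was 608, 611 and 379 counts per 1000000 reads (CPM, with library sizes adjusted by the TMM factors of edgeR) in HPD2, HPD3 and HPD7, against 1789, 1174 and 1187 CPM in CTRL1, CTRL2 and CTRL3. Each HPD library was below each SD library, and the highest HPD library reached 52.1% of the lowest SD library. HPD7 was the lowest of the 6 and CTRL1 the highest. The mean was 533 ± 133 CPM in HPD sperm, against 1383 ± 352 CPM in SD sperm (± standard deviation, n = 3 each). With the 6 rows replaced by their sum, the quasi-likelihood test of edgeR gave a log2 fold change of HPD over SD of −1.38 ± 0.28 (± standard error, adjusted p = 0.0118), with a 95% confidence interval that ended at −0.76, and a level 2.60-fold lower. That call ended without HPD2 (adjusted p = 0.0897), HPD3 (adjusted p = 0.0688) or HPD7 (adjusted p = 0.0569), with log2 fold changes of −1.37, −1.43 and −1.04.

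Among the rows, 5 of 6 fell in HPD sperm, all but miR-181c, at an adjusted p of at most 0.05. In the same edgeR fit 6.4% of the 1858 rows tested and 29.1% of the 285 miRNA rows tested fell. With the copies summed, 3 of the 4 members fell, where 6.3% of 1856 rows did. The levels of the 5 rows that fell did not overlap between the diets, which also held, in that direction, for 13.1% of all rows tested and 47.4% of the miRNA rows tested.

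**Figure D1:**
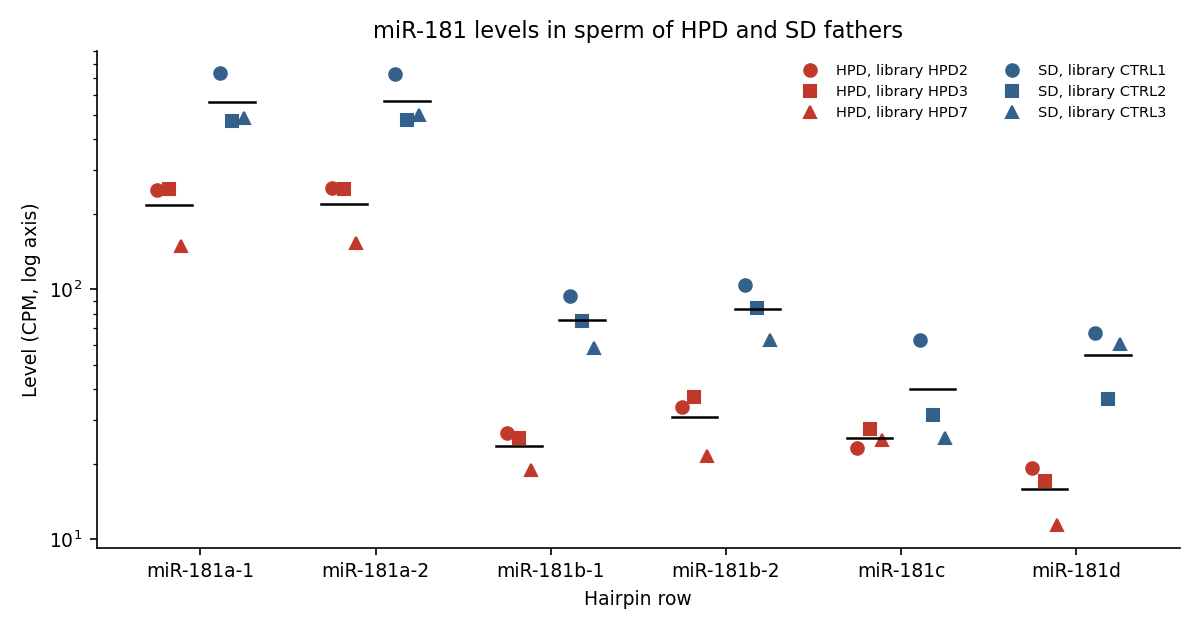
Level of each miR-181 hairpin row in CPM on a log axis, with 1 point per library and a line at the group mean, HPD in red on the left and SD in blue on the right of each row. The HPD points lie below all SD points in 5 rows, while for miR-181c the HPD points, from 23.3 to 27.7 CPM, lie around the lowest SD point of 25.4 CPM.

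MiR-181a carried most of the family. Its copies together gave 505, 504 and 302 CPM in HPD2, HPD3 and HPD7, against 1461, 947 and 980 CPM in CTRL1, CTRL2 and CTRL3. The log2 fold change of their sum was −1.37 ± 0.29 (± standard error, as for the fold changes that follow, adjusted p = 0.0140 from edgeR). HPD2 and HPD3 were nearly equal and HPD7 was lower, while CTRL1 stood above the other SD libraries. As separate rows, miR-181a-1 had a log2 fold change of −1.37 (adjusted p = 0.0155) and miR-181a-2 one of −1.37 (adjusted p = 0.0146). MiR-181a-1 ranged from 149 to 252 CPM in HPD fathers and from 472 to 731 CPM in SD fathers, and miR-181a-2 from 153 to 255 CPM in HPD fathers and from 475 to 729.5 CPM in SD fathers.

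MiR-181b, the partner of miR-181a in both clusters, gave 60.5, 62.5 and 40.4 CPM in HPD2, HPD3 and HPD7, against 198, 159 and 121 CPM in CTRL1, CTRL2 and CTRL3, with its copies summed. Its log2 fold change was −1.55 ± 0.30 (adjusted p = 0.00963 from edgeR). The highest HPD library had 51.8% of the level of the lowest SD library, here CTRL3. The row of miR-181b-1 gave 26.6, 25.3 and 18.9 CPM in the HPD libraries, against 94.4, 74.6 and 58.1 CPM in the SD libraries, a log2 fold change of −1.68 ± 0.32 (adjusted p = 0.00747). The row of miR-181b-2 gave 33.9, 37.2 and 21.5 CPM in the HPD libraries, against 104, 84.2 and 62.6 CPM in the SD libraries, a log2 fold change of −1.44 ± 0.33 (adjusted p = 0.0224). Of the 5 rows that fell, miR-181b-2 had the highest adjusted p.

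MiR-181d gave 19.3, 17.1 and 11.4 CPM in HPD2, HPD3 and HPD7, against 66.7, 36.4 and 60.3 CPM in CTRL1, CTRL2 and CTRL3. These values rest on 98, 121 and 90 reads in the HPD libraries and on 528, 160 and 278 reads in the SD libraries. Its log2 fold change was −1.78 ± 0.36 (95% confidence interval −2.58 to −0.97, adjusted p = 0.0122 from edgeR). This was the lowest point estimate of the 6 rows, with an interval that spans the estimates of the other 4 rows that fell. CTRL2, the shallowest library, was the SD library nearest to the HPD libraries.

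MiR-181c, which has been studied in rat heart mitochondria, was the member that did not pass the test. It gave 23.3, 27.7 and 25.1 CPM in HPD2, HPD3 and HPD7, against 63.0, 31.4 and 25.4 CPM in CTRL1, CTRL2 and CTRL3, from 118, 196 and 198 reads against 499, 138 and 117 reads. HPD3 was above CTRL3, so the groups overlapped, and CTRL1 was far above the other SD libraries. Its log2 fold change was −0.66 ± 0.38 (95% confidence interval −1.51 to 0.19, adjusted p = 0.476 from edgeR), an interval that holds both no change and the estimates of the miR-181a and miR-181b-2 rows. Without CTRL1 the log2 fold change of miR-181c was −0.13 (adjusted p = 0.958 from edgeR).

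**Figure D2:**
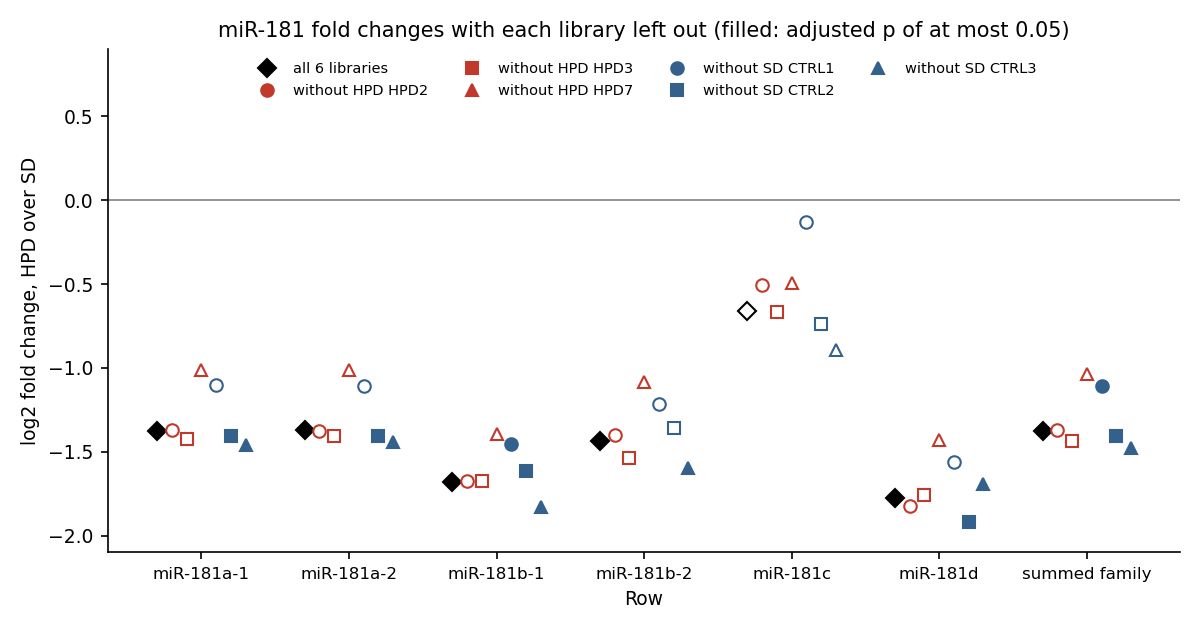
The log2 fold change of HPD over SD for each miR-181 row and for the summed family, with all 6 libraries (diamonds) and with each library left out, filled where the adjusted p from edgeR was at most 0.05. Each value lies below 0, between −1.92 for miR-181d without CTRL2 and −0.13 for miR-181c without CTRL1, but no row is filled when an HPD library is left out.

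The direction of these differences was kept when single libraries were left out, but most of the calls were lost. Without HPD2, HPD3 or HPD7, 0 of the 6 rows were called by edgeR, with adjusted p between 0.0525 and 0.152 for the 5 rows above, while 5 of 6 had an unadjusted p under 0.05 in each case. In these fits 2.27%, 2.88% and 3.75% of all rows were called lower. The share of all rows at an unadjusted p under 0.05 was not taken with a library left out. With all 6 libraries, 325 of the 1858 rows and 133 of the 285 miRNA rows had such a p from edgeR, in either direction. Without CTRL1 the call of miR-181b-1 alone was left (log2 fold change −1.45, adjusted p = 0.0369), and without CTRL2 that of miR-181b-2 was lost (adjusted p = 0.0866), where 4.35% and 3.29% of all rows were called lower. With all 6 libraries, DESeq2 and limma called 5 of 6 rows each, beside 10.7% and 6.03% of the rows they tested.

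MiRNA as a population was lower in HPD sperm, so the family was also set against the other miRNAs. In the fit of all small RNAs, the 6 rows had a median log2 fold change of −1.41, the 285 miRNA rows one of −0.86 and all 1858 rows one of 0.03. Lower values than that of miR-181d were found for 16.8% of the miRNA rows, lower than that of miR-181b-1 for 19.6%, than that of miR-181b-2 for 26.7%, than those of the miR-181a rows for 29.8% and 30.2%, and than that of miR-181c for 55.8%. When miRNA rows were normalized and tested on their own, miR-181b-1 (log2 fold change −0.89 ± 0.27, adjusted p = 0.0262 from edgeR) and miR-181d (−1.01 ± 0.32, adjusted p = 0.0332) fell relative to the other miRNAs, 2 of 6 rows, where 16.4% of 281 miRNA rows fell. The miR-181a rows, at −0.60 and −0.59 (adjusted p = 0.0780 for each), and miR-181b-2, at −0.66 (adjusted p = 0.0877), did not pass that test. MiR-181c was at 0.21 ± 0.33 there (adjusted p = 0.663), so the sign of its difference depended on the rows that set the scale. The summed family was at −0.60 ± 0.23 (95% confidence interval −1.09 to −0.10, adjusted p = 0.0746 from edgeR). The 2 calls in this fit did not hold up either, with 0 of 6 rows called without HPD2, HPD3 or HPD7 and 1 of 6 without any of the SD libraries. At an unadjusted p under 0.05 from edgeR there were 2, 4 and 2 rows without HPD2, HPD3 and HPD7. With all 6 libraries, 5 of the 6 miR-181 rows and 118 of the 281 miRNA rows had such a p in this fit, in either direction. The share of all miRNA rows, called or at an unadjusted p, was not taken with a library left out.

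**Figure D3:**
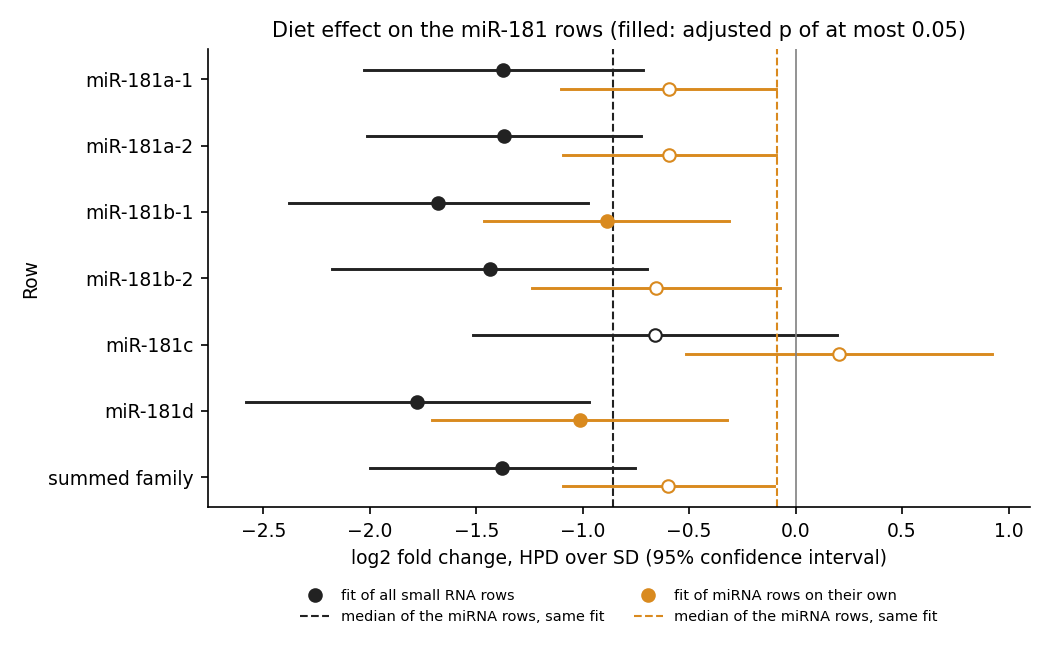
The log2 fold change of HPD over SD with its 95% confidence interval for each miR-181 row and the summed family, in the fit of all small RNAs (black) and of miRNAs on their own (orange), filled where the adjusted p was at most 0.05. Dashed lines mark the median of the miRNA rows in each fit, at −0.86 and −0.09, and all miR-181 rows but miR-181c lie to the left of the line of their own fit.

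As a share of the miRNA reads, which needs no scaling factor, the family made up 0.357%, 0.420% and 0.356% in HPD2, HPD3 and HPD7, against 0.618%, 0.597% and 0.553% in CTRL1, CTRL2 and CTRL3. Within a library, the 95% Wilson intervals of these shares were 0.0203 to 0.0325 points wide, which covers counting error only. The mean share was 0.378 ± 0.0368% in HPD sperm, against 0.589 ± 0.0330% in SD sperm (± standard deviation, n = 3 each), a difference of −0.212 points. No HPD library reached an SD library, and the two-sided exact permutation p was 0.1, the lowest possible with 3 rats per diet. As a share of all reads the family was at 0.0502 ± 0.00869% in HPD sperm, against 0.144 ± 0.0301% in SD sperm.

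The order of the members in level differed between the diets only at its low end. The mature forms are 22 or 23 bases long in the 5′ arm and 19 to 22 in the 3′ arm, and CPM were compared without scaling by length. MiR-181a was 8.02 times as abundant as miR-181b in HPD fathers and 7.09 times in SD fathers, and miR-181b in turn was above miR-181c and miR-181d in each library. By mean CPM over 330 miRNA names, miR-181a ranked 55 in HPD fathers and 39 in SD fathers, and miR-181b ranked 108 in HPD fathers and 103 in SD fathers. MiR-181c ranked 128 in HPD fathers and 145 in SD fathers, and miR-181d ranked 147 in HPD fathers and 129 in SD fathers. MiR-181c was above miR-181d in each HPD library and below it in each SD library, although in SD fathers their ranges, 25.4 to 63.0 CPM and 36.4 to 66.7 CPM, overlapped.

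The makeup of the family was therefore compared within libraries. MiR-181a made up 83.0%, 82.4% and 79.7% of the miR-181 reads in HPD2, HPD3 and HPD7, against 81.7%, 80.7% and 82.6% in CTRL1, CTRL2 and CTRL3. Its share was thus alike in range, and the difference of 0.0758 points was smaller than the spread between libraries (two-sided exact permutation p = 1). MiR-181b made up 9.96%, 10.2% and 10.7% in the HPD libraries, against 11.1%, 13.5% and 10.2% in the SD libraries (exact permutation p = 0.3). MiR-181d made up 3.18%, 2.80% and 3.01% in the HPD libraries, against 3.73%, 3.10% and 5.08% in the SD libraries (exact permutation p = 0.2). Both ranges overlapped between the diets. MiR-181c made up 3.83%, 4.53% and 6.61% in the HPD libraries, against 3.52%, 2.67% and 2.14% in the SD libraries, without overlap (exact permutation p = 0.1). Adjusted over the 4 members, the p of this exact test was 0.4 for miR-181b, miR-181c and miR-181d and 1 for miR-181a. The 95% Wilson interval of the miR-181c share was 3.21% to 4.57% in HPD2, the lowest HPD library, and 3.23% to 3.84% in CTRL1, the highest SD library, so these libraries cannot be told apart at this depth.

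**Figure D4:**
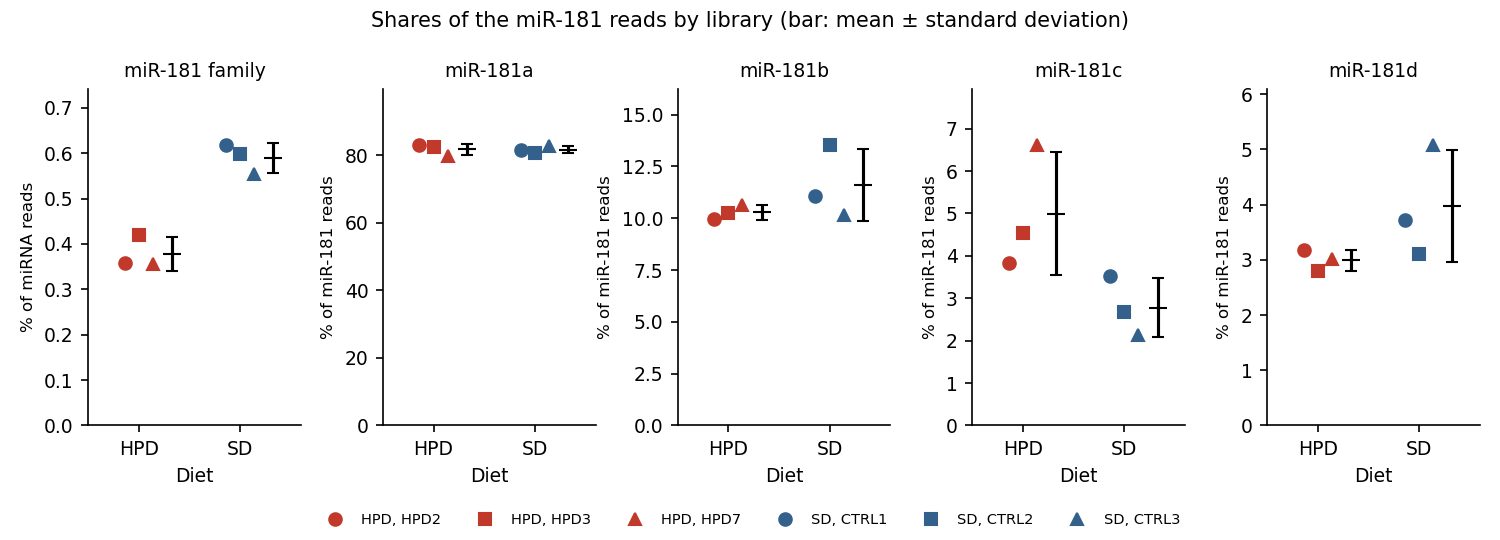
Share of the family in the miRNA reads (first panel) and of each member in the miR-181 reads, in percent on axes that start at 0, with 1 point per library, HPD left of SD, and a bar for the mean ± standard deviation. The family share and the miR-181c share do not overlap between the diets, the first lower and the second higher in HPD fathers.

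The ratio of the miR-181c and miR-181d pair to the miR-181a and miR-181b pairs had a log2 value of −3.54 ± 0.27 in HPD sperm, against −3.80 ± 0.20 in SD sperm (± standard deviation, n = 3 each), and its ranges overlapped (two-sided exact permutation p = 0.4). The ratio of miR-181c to miR-181d was 1.204, 1.62 and 2.20 in HPD2, HPD3 and HPD7, against 0.945, 0.863 and 0.421 in CTRL1, CTRL2 and CTRL3, a contrast chosen after its values were seen. On the log2 scale the mean was 0.70 ± 0.43 in HPD sperm, against −0.51 ± 0.64 in SD sperm (± standard deviation), a difference of 1.21 that lay between 0.85 and 1.43 with any library left out. Its two-sided exact permutation p was 0.1, the smallest possible, and 0.167 when adjusted over 5 ratios. The log2 ratio of miR-181c to miR-181a was −4.44, −4.19 and −3.59 in the HPD libraries, against −4.53, −4.92 and −5.27 in the SD libraries, without overlap (exact permutation p = 0.1, adjusted p = 0.167). The log2 ratio of miR-181d to miR-181a was −4.71, −4.88 and −4.73 in the HPD libraries, against −4.45, −4.70 and −4.02 in the SD libraries, without overlap but with CTRL2 next to HPD2 (exact permutation p = 0.1, adjusted p = 0.167). The reads behind the ratio of miR-181c to miR-181d are few. MiR-181c was 54.6% of the reads of that pair in HPD2 (95% Wilson interval 48.0% to 61.1%) and 48.6% in CTRL1 (45.5% to 51.6%), while HPD7 and CTRL3, at 68.8% (63.2% to 73.8%) and 29.6% (25.3% to 34.3%), lay far apart.

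The 5 miRNAs whose levels followed the summed family most closely over the 6 libraries, by the root mean square (RMS) difference of log2 CPM centred on each miRNA's mean, were miR-10b (0.128), miR-30d (0.132), miR-10a (0.139), miR-674 (0.175) and miR-203a (0.178). The median RMS difference over the 212 candidates, which had a mean count of at least 50, was 0.552. MiR-10a and miR-10b lie in HOX clusters, miR-30d belongs to the widely expressed miR-30 family and miR-203a is a miRNA of keratinized epithelium. All points share the same 6 libraries and the same lower miRNA content of the HPD libraries, and the likeness is a description with no test. Within the family, the row of miR-181d was 0.280 and that of miR-181c 0.523 from the sum, and 7.55% and 45.8% of the candidates were nearer.

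**Figure D5:**
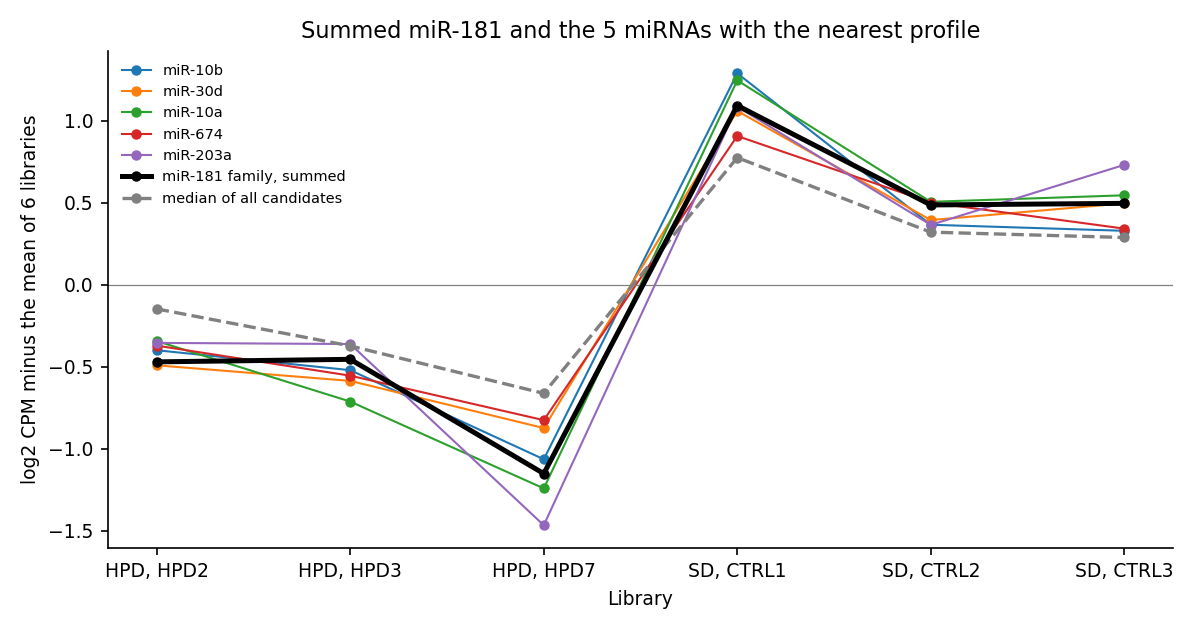
Level of the summed miR-181 family (black), of the 5 miRNAs with the nearest profile (colours) and the median of the candidates (dashed grey), as log2 CPM minus the mean of the 6 libraries, by library, HPD on the left. The family is lowest in HPD7, at −1.15, and highest in CTRL1, at 1.09, and the median of the candidates has its lowest and highest values in the same libraries.

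Other miRNAs known from mouse or human cells to act on the mRNA of Sirt1, as miR-181a does, fell in 4 of 11 rows tested and rose in 0, with a median log2 fold change of −1.05, where 29.1% of all miRNA rows fell, with a median of −0.86. The 4 were miR-199a, miR-22, miR-204 and miR-195. The 11 rows include miR-9a-1, miR-9a-2 and miR-9a-3, copies of a single miRNA with nearly equal levels. These copies are not independent measurements in the count or the median. With miRNAs fitted on their own, 3 of 11 were lower by the edgeR test, where 16.4% of the miRNA rows were, and miR-204 no longer passed it (−0.24, adjusted p = 0.476). MiR-199a, a miRNA of stromal cells, gave 357, 339 and 251 CPM in HPD2, HPD3 and HPD7, against 1021, 1211 and 1039 CPM in CTRL1, CTRL2 and CTRL3 (log2 fold change −1.79 ± 0.23, adjusted p = 0.00188 from edgeR). MiR-22, a miRNA enriched in heart and skeletal muscle, gave 318, 353 and 163 CPM in the HPD libraries, against 1002, 867 and 1305 CPM in the SD libraries (log2 fold change −1.93 ± 0.32, adjusted p = 0.00424). MiR-204 gave 286, 252 and 297 CPM in the HPD libraries, against 684, 498 and 546 CPM in the SD libraries (log2 fold change −1.05 ± 0.23, adjusted p = 0.0173). The row of miR-9a-2, a miRNA of the nervous system, was at −0.15 ± 0.36 on the log2 scale (adjusted p = 0.935).

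Some, but not all, of the miRNAs of other cells that sperm pellets can hold also differed with the diet. Of the 6 leukocyte miRNAs, 4 fell (miR-146a, miR-142, miR-223 and miR-155) and 0 rose, with a median log2 fold change of −1.14, where 29.1% of all miRNA rows fell. With miRNAs fitted on their own, 2 of 6 were lower by the edgeR test (miR-223 and miR-155), where 16.4% of the miRNA rows were, while miR-146a (−0.48, adjusted p = 0.129) and miR-142 (−0.19, adjusted p = 0.596) did not pass it. The summed level of the 6 leukocyte miRNAs was 1053 to 1190 CPM in HPD fathers and 1996 to 2434 CPM in SD fathers. MiR-142, the defining miRNA of blood cells, gave 91.7, 86.8 and 110 CPM in HPD2, HPD3 and HPD7, against 233, 180.8 and 171 CPM in CTRL1, CTRL2 and CTRL3 (log2 fold change −1.02 ± 0.26, adjusted p = 0.0340 from edgeR). MiR-146a, which restrains inflammatory signalling, had a log2 fold change of −1.27 (adjusted p = 0.00504), while miR-146b, at −0.40 (adjusted p = 0.570), and the lymphocyte miRNA miR-150, at −0.33 (adjusted p = 0.648), did not pass the test. The endothelial miR-126a fell, with 172 to 281 CPM in HPD fathers and 537 to 1150 CPM in SD fathers (log2 fold change −2.11, adjusted p = 0.00358). Of the smooth muscle and stroma miRNAs 2 of 4 fell (miR-199a and miR-214), of the epithelial 1 of 7 (miR-203a) and of the erythroid 1 of 3 (miR-451), where again 29.1% of all miRNA rows fell. With miRNAs fitted on their own, miR-126a, miR-199a and miR-214 still passed the edgeR test as lower, miR-203a (−0.65, adjusted p = 0.0877) and miR-451 (−0.29, adjusted p = 0.402) did not, and the epithelial miR-205 was higher in HPD fathers (1.05 on the log2 scale, adjusted p = 0.0106).

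The summed smooth muscle and stroma miRNAs were at 3871 to 10654 CPM in HPD fathers and 6926 to 16808 CPM in SD fathers. Most of this sum was miR-143, with 3311 to 9896 CPM in HPD fathers and 4965 to 14918 CPM in SD fathers. The summed epithelial miRNAs were at 4865 to 8693 CPM in HPD fathers and 6912 to 14288 CPM in SD fathers, and the erythroid at 113 to 116 CPM in HPD fathers and 194 to 304 CPM in SD fathers. None of the rows on these lists was at 0 in all libraries. The germ cell miRNAs miR-34b, miR-34c and miR-449a, which are abundant in the male germ line, summed to 10892 to 11125 CPM in HPD fathers and 6435 to 9090 CPM in SD fathers. Of these, miR-34b alone did not overlap, with 7794 to 8615 CPM in HPD fathers and 3709 to 7360 CPM in SD fathers. MiR-34c gave 2250 to 2791 CPM in HPD fathers and 1561 to 3075 CPM in SD fathers, and miR-449a 260 to 367 CPM and 168 to 368 CPM. The X-linked miRNAs of the testis summed to 6899 to 11035 CPM in HPD fathers and 5920 to 11809 CPM in SD fathers. Of the 3 germ cell miRNAs, 0 were called by edgeR, DESeq2 or limma in the fit of all rows, and 1 had an unadjusted p under 0.05 with each of these tools. Of the 11 X-linked testis miRNAs, 0 were called by these tools, and 0, 0 and 1 had an unadjusted p under 0.05 from edgeR, DESeq2 and limma. When miRNAs were scaled among themselves, 3 of the 3 germ cell and 8 of the 11 X-linked miRNAs passed the test and were higher in HPD fathers, where 8.9% of 281 miRNA rows were. The part of these other cell types in the miR-181 levels was not tested.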

How the data were processed

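Epididymal sperm of individual rats, 3 on HPD and 3 on SD, gave 1 small RNA library each. The authors trimmed the reads, discarded short ones and annotated the rest with SPORTS1.0 for Rnor_6.0 and a piRNA database. Bowtie, DESeq, DESeq2 and the mouse build mm9 also stand in the submitters' processing notes. The authors deposited 2 tables, the first with estimated counts per annotated small RNA, not normalized and with shared reads as fractions. The deposited signal of the second, the normalized counts, is the same count without its fraction, scaled by 1 factor per library. Whole reads were recovered for 100% of its values in each library, within 1e-06. The row of snoRNA, which names no single RNA, held 1.25% to 1.45% of the reads in HPD and 0.293% to 0.536% in SD libraries and was kept out of tests and library sizes.

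Columns were grouped by diet. They could not be tied to numbered rats, since the HPD column names hold 2 numbers that differ. No library was a duplicate of another of the same diet, and pairs across the diets were not compared. After rounding, the estimated counts went into the quasi-likelihood test of edgeR 4.0.16 (R 4.3.3) with TMM factors. The filter on low counts, filterByExpr with minima of 10 per library and 15 in total, kept 1858 of 26561 rows, over which p was adjusted by Benjamini-Hochberg. Library size was the sum of rows not nested in another row. For shares and ratios, exact permutation tests (two-sided) were used. Alternatives used DESeq2 1.42.0, limma 3.58.1 on the deposited normalized counts as log2(count + 1), other normalization factors and filters, and each library left out. Tested on simulated data (these 1858 rows, HPD against SD), the fit called 11.1% of 54 rows with a 2-fold change, 57.7% of 52 with a 4-fold change, 85.5% of 55 with an 8-fold change and 0 others. Figures were drawn with matplotlib 3.10.9.

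The members, lists, tests and alternatives were chosen with earlier results of these data known. The text names each member row, the 5 miRNAs nearest in profile among those with 50 or more reads on average, and of each list its count, with values for at most 4 rows of the highest mean count. Other list members that fell, and the values of miR-126a, were named after their values were seen, as were the ratio of miR-181c to miR-181d and the other ratios of single members. Sequences and gene neighbours were matched by name in RefSeq tables of GRCr8, with a mature or hairpin sequence for 6 of the 6 genes. Target genes and read lengths were not analysed here.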

Additional observations from a re-analysis of the deposited data

Results flagged for a closer look

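The row that totals snoRNA reads, which stands outside the comparisons above, made up 1.36% of the reads in HPD fathers on average. This was above the 0.423% in SD fathers, and no HPD library overlapped an SD library. In CPM, each HPD library was above each SD library for 12.2% of the 1858 rows tested. The snoRNA row itself was not tested.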

How the results depend on the processing

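The summed family was lower in HPD fathers under each of the 17 alternatives run. Its call held in 13 of them and ended with miRNA rows on their own (log2 fold change −0.60, adjusted p = 0.0746 from edgeR) and without HPD2, HPD3 or HPD7. With 1 library left out its log2 fold change lay between −1.48 and −1.04, and between 0 and 5 of the 6 rows were called lower. In those fits 2.27% to 4.35% of all rows were called lower. Without a filter on low counts 2 of 6 rows were called in the fit of all rows and 0 of 6 in the fit of miRNAs alone (4 of 6 at an unadjusted p under 0.05), and with miRNA rows on their own 2 of 6. Of the 23981 rows without a filter, many with few reads, 0.371% were called lower in the fit of all rows. With miRNA rows on their own, 16.4% of 281 were. The share of miRNA rows was not taken in the fit of miRNAs alone without a filter. In the fit of miRNAs alone, leaving out 1 library gave 0 to 1 calls. The log2 fold change of miR-181c turned to 0.21 with miRNA rows on their own. Upper quartile factors ended the call of miR-181b-2 (adjusted p = 0.0556). The share of the family differed by −0.0939 points with all reads as the denominator. The difference in the share of miR-181a lay between −0.573 and 1.08 points with 1 library left out. With all 6 libraries it was 0.0758 points, smaller than the spread between libraries, so its sign was not settled. The log2 ratio of miR-181c and miR-181d to the other pairs differed by 0.10 to 0.35.

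Over all rows, 119 were lower and 41 higher. The count of lower rows was 79 without nested tRNA ends, 46 with miRNA rows on their own and 60 to 118 with 1 library left out. The count of higher rows was 85 with upper quartile factors, 70 without a filter, 96 with a mean count of at least 50, 68 with DESeq2, 25 with miRNA rows on their own, 15 without nested tRNA ends and 15 to 53 with 1 library left out. Over all rows tested the median log2 fold change, 0.03, was shifted by −0.12 with library size alone, 0.24 with upper quartile factors, 0.65 without a filter, 0.50 with DESeq2 and 0.15 with limma, and the median of the miR-181 rows was between −1.55 and −1.15 there.

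With the number at the end of each column name as a replicate block, the summed family had a log2 fold change of −1.38 (adjusted p = 0.0121 from edgeR) and 5 of 6 rows were called. In that fit 5.6% of the 1858 rows tested were called lower. The deviations of libraries with the same number had correlations of −0.03, −0.06 and −0.05 over rows. The numbers could not be tied to rats, and these values cannot show whether same-numbered libraries were handled together. Depth was lowest for miR-181d and miR-181c, with 90 to 121 and 118 to 198 reads in an HPD library.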
